A study of Homo sapiens with 6 samples.

Results

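Hypoxia-inducible genes outside glycolysis were examined as a set of 32 genes, read from the deposited count table by symbol. The set was chosen with earlier results of these data known. All 32 had a row among the 19395 genes of the table, and 31 passed the filter on low counts together with 12758 genes in all. CA9 did not pass it. The genes were read in 6 RNA-seq libraries of polyadenylated RNA from human cells labelled DLD-1, an established colorectal adenocarcinoma line. The 3 oeTNFRSF12A libraries came from cells overexpressing TNFRSF12A, the receptor for the cytokine TWEAK, after doxycycline at 0.1 µg/mL for 48 h. The 3 oeControl libraries are labelled WT and untreated, and all cells were grown in RPMI-1640 with 10% serum at 37 °C and 5% CO2. An oxygen level is not given in the labels, and none of them names a hypoxic treatment. Nor do they say whether the controls carry a construct, so overexpression, its construct and doxycycline cannot be told apart.

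When oxygen is low, the prolyl hydroxylases that mark the alpha subunits of the hypoxia-inducible factors (HIF) for degradation slow down. HIF then accumulates, pairs with ARNT and binds a short DNA core at its target genes. Beside glycolysis, the known targets act in pH control, glycogen storage, mitophagy, growth restraint, secretion and feedback on HIF itself. Several of them also answer to other signals. DDIT4 and STC2, for example, are induced by ATF4 in the integrated stress response.

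The overexpressed gene checked the labels. TNFRSF12A stood at 22.0 ± 1.60 CPM (counts scaled to library size, mean ± SD, n = 3) in the controls and 65.9 ± 4.29 CPM in the oeTNFRSF12A libraries. Library totals were 18154839 to 18406885 counts, so 1 CPM is about 18 counts. Most colon epithelium markers went against the labelled colon identity, which therefore rests on the label alone. Of 17 colon epithelium markers 4 reached 1 CPM in all 6 libraries and 13 stayed below it in all of them. EPCAM had 13 counts over all libraries together, KRT19 14 and CDX2 4, and 3 others (CDX1, CEACAM5 and MUC2) had no count, while KRT8 and KRT18 were abundant. Some marker lists, this one among them, moved with the groups. The 17 colon epithelium markers summed to 360 to 365 CPM in the controls and 344 to 356 CPM in the oeTNFRSF12A libraries. The 6 fibroblast markers summed to 1552 to 1661 CPM in the controls and 1111 to 1157 CPM in the oeTNFRSF12A libraries, nearly all of it COL1A1 and COL1A2, with DCN and LUM at 0. The 7 kidney epithelium markers summed to 150 to 159 and 133 to 136 CPM, with UMOD at 0. The 5 endothelial markers summed to 1.27 to 1.78 and 0.647 to 0.981 CPM, with VWF and TEK at 0. The 8 blood cell markers overlapped, at 6.61 to 8.30 and 6.92 to 8.46 CPM, with CD3E, MS4A1 and HBB among those at 0. The part of these markers in the results was not tested. In such bulk libraries, fewer cells of a kind and less RNA per cell cannot be told apart. Since no label calls the replicates separate cultures, the spread behind each p-value is that among these libraries and may be technical.

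The DNA before some of the genes is shown first, because HIF and several members of the set act through short motifs there. RefSeq windows of 250 bases before an annotated start were found for 26 of the 32 genes, 35 windows in all (GRCh38.p14). The HIF core was searched on both strands as ACGTG or GCGTG. The palindrome CACGTG, an E-box read by BHLHE40, BHLHE41 and the MXI1 partner MAX, holds ACGTG on both strands and so counts as a match of it. The stretches below run 5′ to 3′ on the gene's strand and end at the annotated start or at the first annotated exon of a protein-coding gene, with core matches in capitals. DDIT4, BNIP3, AK4 and FAM162A are shown as genes that fell and carry cores, TMEM45A as one that fell without a core here, and NARF as the one that rose; for AK4 and NARF the window lying first of several is shown.
DDIT4, chr10:72273674-72273919, plus strand: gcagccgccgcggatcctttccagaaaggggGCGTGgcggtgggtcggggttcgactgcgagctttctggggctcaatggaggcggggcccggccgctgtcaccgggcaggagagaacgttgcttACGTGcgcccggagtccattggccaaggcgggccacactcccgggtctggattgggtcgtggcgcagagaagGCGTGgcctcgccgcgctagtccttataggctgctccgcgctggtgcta
BNIP3, chr10:131982014-131982173, minus strand: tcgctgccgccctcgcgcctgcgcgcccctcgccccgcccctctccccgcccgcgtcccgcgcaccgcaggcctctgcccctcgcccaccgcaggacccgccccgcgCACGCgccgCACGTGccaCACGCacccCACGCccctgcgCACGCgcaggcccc
AK4, chr1:65147302-65147548, plus strand: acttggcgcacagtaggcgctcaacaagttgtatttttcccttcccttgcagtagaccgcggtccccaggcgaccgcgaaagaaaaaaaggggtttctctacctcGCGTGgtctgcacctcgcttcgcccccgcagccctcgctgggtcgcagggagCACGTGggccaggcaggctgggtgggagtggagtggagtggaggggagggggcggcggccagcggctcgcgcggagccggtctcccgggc
FAM162A, chr3:122383932-122384175, plus strand: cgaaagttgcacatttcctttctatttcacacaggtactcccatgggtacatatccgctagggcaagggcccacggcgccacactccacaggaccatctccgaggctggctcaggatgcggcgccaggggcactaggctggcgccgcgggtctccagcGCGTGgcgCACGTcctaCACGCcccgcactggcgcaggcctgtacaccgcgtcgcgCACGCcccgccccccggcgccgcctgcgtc
TMEM45A, chr3:100492369-100492618, plus strand: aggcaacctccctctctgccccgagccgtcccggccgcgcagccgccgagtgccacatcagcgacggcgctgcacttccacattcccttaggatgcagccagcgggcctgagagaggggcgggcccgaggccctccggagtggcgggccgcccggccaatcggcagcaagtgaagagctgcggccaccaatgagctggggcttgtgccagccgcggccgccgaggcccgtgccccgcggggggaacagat
NARF, chr17:82457948-82458179, plus strand: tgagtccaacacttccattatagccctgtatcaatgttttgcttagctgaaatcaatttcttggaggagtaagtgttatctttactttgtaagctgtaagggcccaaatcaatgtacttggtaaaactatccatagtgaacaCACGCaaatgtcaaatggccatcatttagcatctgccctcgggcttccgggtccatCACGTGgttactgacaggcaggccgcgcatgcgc

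A core was present in 29 of the 35 windows (82.9%), against 54.6% of the 15376 windows of tested genes and 43.2% of all 35116 windows in the table. The 35 include the window of CA9, which was not tested. Some windows of a gene overlap, so a site can count more than once, as for NARF. By gene, 22 of the 26 members with a window had a core in at least 1 window. ACGTG stood in 54.3% of the members' windows and in 21.9% of those of tested genes, and GCGTG in 54.3% and 43.2%. The E-box CACGTG stood in 28.6% and 8.04%. The members' windows also had a higher mean GC content, 68.7% against 63.0%, which was not adjusted for. Nearly all tested members with windows fell, so the set could not show whether the core goes with the response. Of the 21 tested members with a core in any window 20 fell, and the median log2 fold change of the 21 was -0.66. The 4 members with windows but no core (TMEM45A, ERRFI1, RORA and SLC6A8) fell as well, with a median of -0.65. Across all tested genes, a core was in 50.7% of the windows of genes that fell, 57.5% of those that rose and 55.0% of those not called. A match is only a run of letters, and binding was not measured.

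Nearly the whole set was lower in the oeTNFRSF12A libraries. Calls rest on edgeR's quasi-likelihood test, with p-values adjusted by the Benjamini-Hochberg method over all 12758 genes and a threshold of 0.05. Of the 31 tested genes 29 fell, against 21.1% of all tested genes, and 1, NARF, rose, against 21.2% (42.3% in either direction). JMJD6 did not pass. Among the 29, ANKRD37 passed the filter only through the controls, and a stricter filter that left it out had 28 falls. The median log2 fold change of the set was -0.66, and that of all tested genes was 0.00. Of all tested genes, 3.82% lay at or below the median of the set. For the 29 that fell, all oeTNFRSF12A libraries lay below all controls in CPM, as they did for 25.7% of all tested genes. Summed over the 32 genes, the controls held 2837, 2958 and 2830 CPM and the oeTNFRSF12A libraries 1950, 1944 and 1913 CPM.

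**Figure D1:**
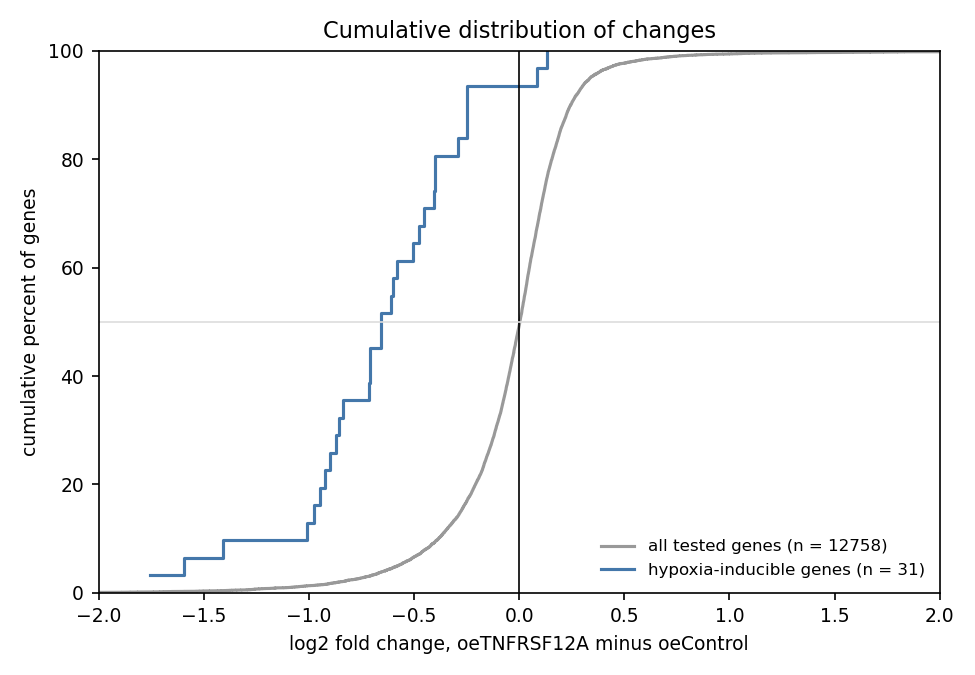
Cumulative percent of genes against the log2 fold change of oeTNFRSF12A over oeControl, for the 31 tested hypoxia-inducible genes and for all 12758 tested genes. The curve of the set crosses 50% at -0.66 and that of all genes near 0.00.

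Because many genes differed by a little, a second test asked for a change of more than 1.5-fold. It was passed by 10 of the 31 genes, all downward, against 1.11% of all tested genes that passed it downward, 0.588% upward and 1.7% in either direction. These were SPAG4, TMEM45A, DDIT4, STC2, STC1, GYS1, RIMKLA, CITED2, BNIP3 and AK4. The falls ranged from a log2 fold change of -0.25 for PPP1R3B to -1.75 for SPAG4. Replicates were close, with a median coefficient of variation over the tested genes of 4.19% in the controls and 4.24% in the oeTNFRSF12A libraries.

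**Figure D2:**
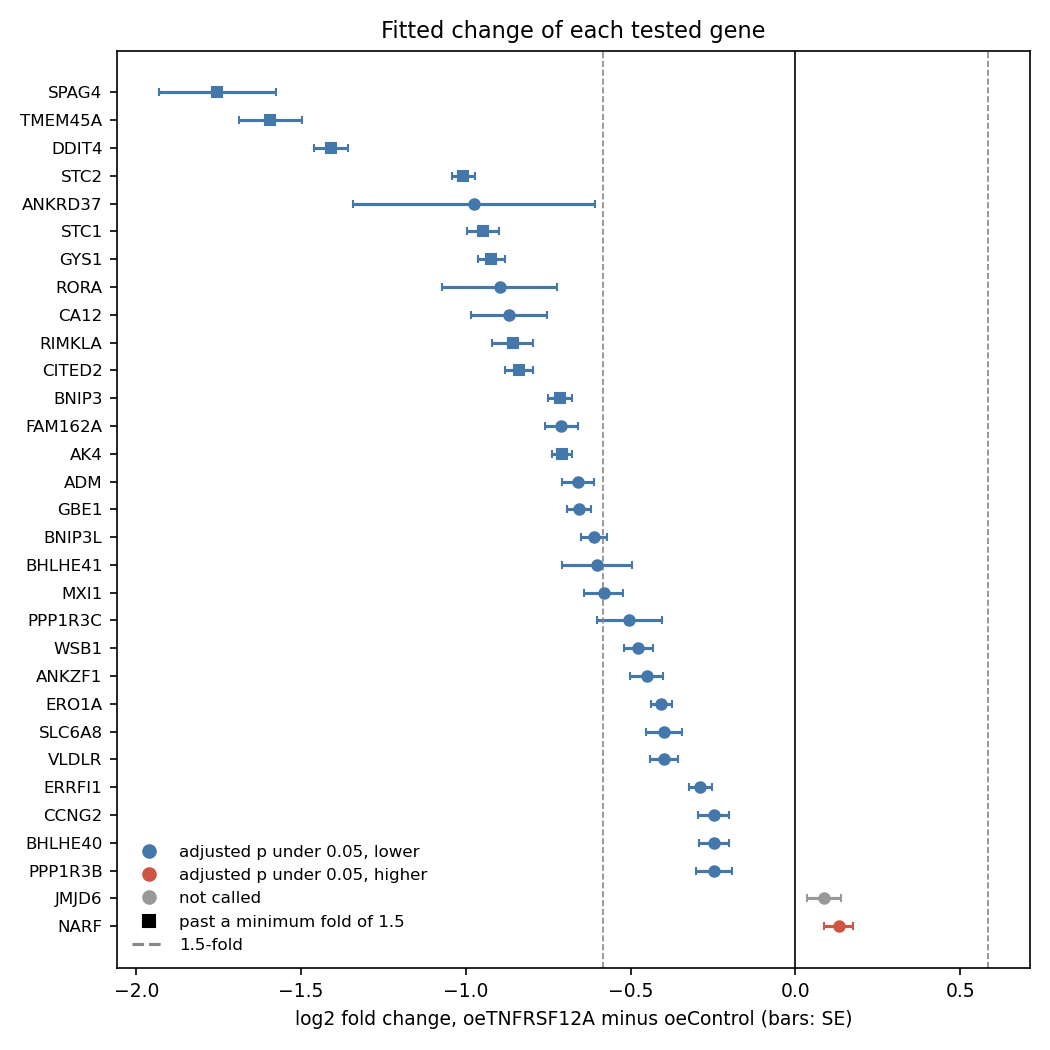
Log2 fold change (oeTNFRSF12A minus oeControl) with its SE for each of the 31 tested genes, with dashed lines at 1.5-fold. All but NARF and JMJD6 lie below 0, and squares mark the 10 genes past a minimum fold of 1.5.

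Genes for secreted signals fell together, 3 of 3. STC2, a stanniocalcin glycoprotein, had 3430, 3461 and 3336 counts in the controls and 1736, 1750 and 1691 in the oeTNFRSF12A libraries. The groups were far apart and each of them was tight. STC2 fell from a mean of 189 ± 4.18 CPM to one of 93.8 ± 2.30 CPM (log2 fold change -1.01, SE 0.03, adjusted p = 3.04e-17). Its relative STC1 had 2082, 2228 and 1930 counts against 1127, 1067 and 1097, with the groups far apart and the controls more spread (log2 fold change -0.95, SE 0.05, adjusted p = 2.03e-13). ADM encodes adrenomedullin, a vasodilator peptide. It fell from 79.8 ± 3.03 to 50.5 ± 3.36 CPM (log2 fold change -0.66), without passing the 1.5-fold test.

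At the cell surface, 4 of 4 tested genes fell. TMEM45A, a transmembrane protein gene, had 280, 272 and 252 counts in the controls and 91, 86 and 94 in the oeTNFRSF12A libraries. This was the second largest fall of the set, 3.02-fold, from 14.8 ± 0.85 to 4.91 ± 0.20 CPM (log2 fold change -1.59, SE 0.10, adjusted p = 1.67e-12). The carbonic anhydrases hydrate CO2 and help tumour cells to control pH. CA12 had 201, 178 and 160 counts against 112, 87 and 101, so its groups stayed apart in spite of a wide spread (log2 fold change -0.87, SE 0.12, adjusted p = 1.42e-06). CA9, a classic HIF target, was barely detected, with 1, 3 and 2 counts in the controls and 0 in each oeTNFRSF12A library. The 6 control counts were 2.04 times a floor of 3 counts over the oeTNFRSF12A group. The exact 95% interval of the ratio of 6 to 0 counts, scaled to library size and covering counting error only, starts at 1.20-fold. Of its exon bases, 38.5% are shared with ARHGEF39 on the opposite strand, which rose (0.31). SLC6A8, the creatine transporter, and VLDLR, a lipoprotein receptor, changed least here, each with a log2 fold change of -0.40.

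The mitochondrial genes fell by nearly equal amounts, 4 of 4. BNIP3 and BNIP3L encode outer membrane receptors that send mitochondria to autophagy. BNIP3 had 2871, 3120 and 3010 counts in the controls and 1882, 1850 and 1848 in the oeTNFRSF12A libraries, where the 3 values almost coincided. It fell from 166 ± 6.66 to 101 ± 1.59 CPM (log2 fold change -0.71, SE 0.04, adjusted p = 5.93e-14). BNIP3L fell from 342 ± 19.6 to 224 ± 9.39 CPM (log2 fold change -0.61, SE 0.04). AK4, a matrix adenylate kinase, and FAM162A, a mitochondrial protein linked to cell death under hypoxia, both had a log2 fold change of -0.71. The annotation holds 39 pseudogenes named after BNIP3 and 6 named after AK4, so the authors' estimation may have divided some of their reads. Of 16 other mitophagy genes tested 7 fell, against 21.1% of all tested genes, and the median log2 fold change was -0.07. OPTN (-0.25), GABARAPL1 (-0.34) and FKBP8 (-0.19) were among them. Of 7 other adenylate kinases 3 fell, AK5 (-0.75), AK7 (-0.70) and AK3 (-0.13).

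DDIT4 stood out among the genes that restrain growth, of which 3 of 3 fell. DDIT4 encodes REDD1, an inhibitor of the kinase complex mTORC1. It had 1340, 1400 and 1277 counts in the controls and 489, 505 and 545 in the oeTNFRSF12A libraries. The lowest control was more than 2-fold above the highest oeTNFRSF12A library, and the mean dropped 2.66-fold, from 74.1 ± 3.57 to 27.9 ± 1.37 CPM (log2 fold change -1.41, SE 0.05, adjusted p = 9.17e-17). Of the exon bases of DDIT4, 41.2% are shared with DDIT4-AS1 on the opposite strand. Whether the counting used strand is unknown, so reads of DDIT4 and its antisense gene cannot be told apart. The others changed little. ERRFI1, an inhibitor of the EGF receptor, had a log2 fold change of -0.29 and CCNG2, an atypical cyclin that slows the cell cycle, -0.25. Of 14 other genes of mTOR control 3 rose and 2 fell, against 21.2% and 21.1% of all tested genes. MTOR itself rose by 0.31 on the log2 scale, and DDIT4L, the relative of DDIT4, fell from 6.19 ± 0.55 to 3.28 ± 0.13 CPM (log2 fold change -0.92).

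All 5 transcription factors and cofactors of the set fell. CITED2, which competes with HIF for its coactivators CREBBP and EP300, had 1450, 1463 and 1458 counts in the controls and 827, 800 and 861 in the oeTNFRSF12A libraries. The controls were almost identical, and CITED2 fell from a mean of 80.6 ± 0.33 CPM to one of 45.1 ± 1.40 CPM (log2 fold change -0.84, SE 0.04, adjusted p = 5.93e-14). CREBBP rose (0.21), whereas EP300 did not pass (0.05). RORA, a nuclear receptor that activates clock genes, was low, with 60, 88 and 72 counts against 35, 39 and 46. Its groups were apart, and the log2 fold change was -0.90 (SE 0.17, adjusted p = 1.90e-04). The clock repressors BHLHE40 and BHLHE41 had log2 fold changes of -0.25 (SE 0.05) and -0.60 (SE 0.11). MXI1, a MAX partner that opposes MYC, changed by -0.58 (SE 0.06). The networks around these factors did not share one direction. Of 19 other clock genes 6 rose and 5 fell, against 21.2% and 21.1% of all tested genes. BMAL2 stood at 0.89, DBP at -0.73 and HLF at -0.70. Changes in the clock list ran from -1.99, a larger fall than any in the set, to 0.89. In the MYC and MAX network 1 of 10, MLXIP, fell (-0.35) and 9 did not pass.

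Glycogen genes fell, 4 of 4. GYS1, the glycogen synthase of most tissues outside liver, had 2282, 2274 and 2338 counts in the controls and 1162, 1228 and 1312 in the oeTNFRSF12A libraries. The groups lay far apart, and the level fell 1.90-fold, from 127 ± 1.53 to 67.0 ± 3.64 CPM (log2 fold change -0.92, SE 0.04, adjusted p = 3.60e-15). GBE1, which branches the chains, fell from 153 ± 4.39 to 97.2 ± 3.11 CPM (-0.66, SE 0.04). PPP1R3C and PPP1R3B bring protein phosphatase 1 to glycogen, and their log2 fold changes were -0.50 (SE 0.10) and -0.25 (SE 0.05). Of 22 other glycogen genes 9 fell and 1 rose, against 21.1% and 21.2% of all tested genes. PYGB, a glycogen phosphorylase, went from 728 ± 16.8 to 455 ± 17.4 CPM (-0.68), its relative PYGL changed by -0.55 and GAA, the lysosomal glucosidase, by -0.35. Genes of glycogen synthesis and of its breakdown were thus both among those that fell.

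Protein folding and turnover genes fell moderately, 3 of 3. ERO1A, which drives disulfide bond formation in the endoplasmic reticulum, changed from 197 ± 0.39 to 148 ± 2.31 CPM (log2 fold change -0.41, SE 0.03). WSB1, a substrate receptor of a ubiquitin ligase, changed by -0.48 (SE 0.04), and ANKZF1, a ribosome quality control factor, by -0.45 (SE 0.05). None of them passed the 1.5-fold test.

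The remaining 5 genes held both the largest fall and the only rise. SPAG4, a SUN-domain protein gene, had 81, 80 and 72 counts in the controls and 27, 22 and 21 in the oeTNFRSF12A libraries. It fell 3.37-fold, from 4.30 ± 0.29 to 1.27 ± 0.18 CPM (log2 fold change -1.75, SE 0.18, adjusted p = 1.85e-08), and ranked 20 of 12758 genes from the most negative change. RIMKLA, an N-acetylaspartylglutamate synthetase, had 556, 560 and 539 counts against 312, 313 and 304. Both groups were tight and far apart, and the log2 fold change was -0.86 (SE 0.06, adjusted p = 4.51e-11). ANKRD37, an ankyrin repeat gene, had 13, 12 and 14 counts against 5, 7 and 8, and passed the filter only through the controls. Its log2 fold change was -0.98 (SE 0.37, adjusted p = 0.0348). The call was lost with DESeq2 (adjusted p = 0.176), without a filter (adjusted p = 0.0665) and when any 1 library other than oeTNFRSF12A replicate 3 was left out (adjusted p = 0.0582 to 0.130). Of its exon bases, 35.2% are shared with UFSP2 on the opposite strand, which did not pass (12.3 ± 0.73 and 11.8 ± 0.52 CPM, adjusted p = 0.576).

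NARF, a prelamin A binding protein gene, had 1123, 1111 and 1108 counts in the controls and 1170, 1269 and 1285 in the oeTNFRSF12A libraries. The groups did not overlap, but the difference was small, from 61.6 ± 0.65 to 67.4 ± 3.08 CPM (log2 fold change 0.13, SE 0.04, adjusted p = 0.0184). The call was lost with DESeq2 (adjusted p = 0.0740) and when replicate 2 or replicate 3 of either group was left out (adjusted p = 0.0513 to 0.101). JMJD6, an oxygen-dependent hydroxylase of the Jumonji family, stood at 40.7 ± 1.53 and 43.2 ± 2.00 CPM, with overlapping groups (log2 fold change 0.09, SE 0.05, adjusted p = 0.184).

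**Figure D3:**
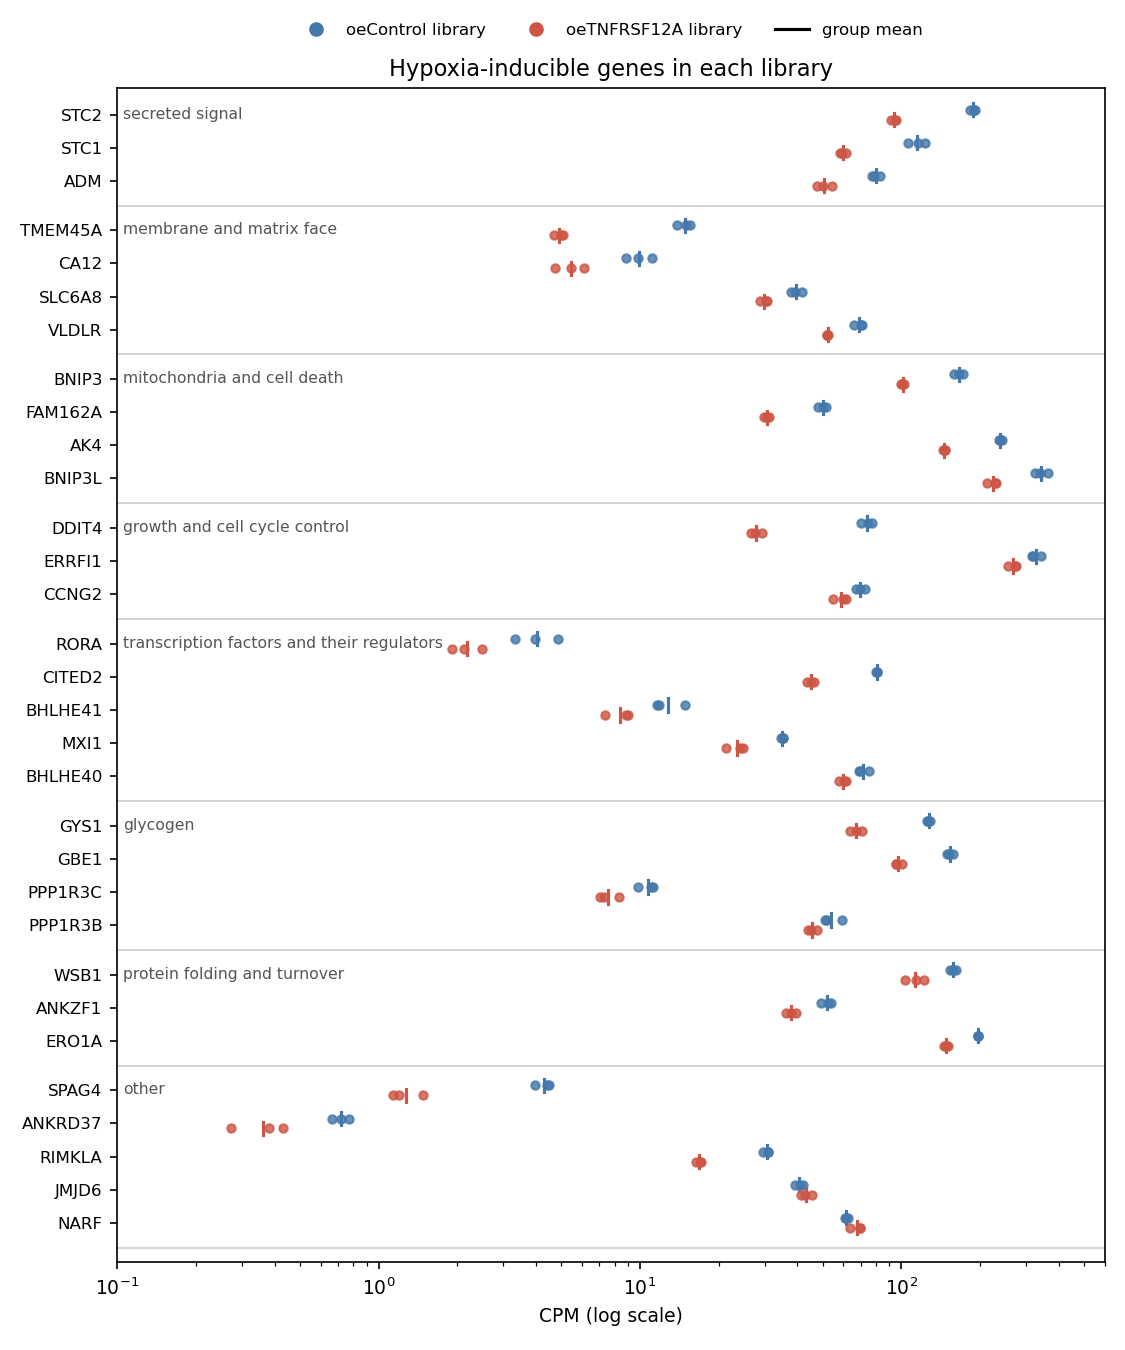
CPM on a log scale in each library for the 31 tested genes, grouped by role, with controls in blue, oeTNFRSF12A libraries in red and the mean of the 3 libraries as a bar. Red points lie to the left of all blue points in 29 genes, overlap them in JMJD6 and lie to the right in NARF.

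The genes differed widely in level. Per kb of annotated exon, BNIP3L (79.3 CPM per kb) and ERRFI1 (78.0 CPM per kb) were the highest in the controls, with overlapping ranges. DDIT4 followed at 36.0 CPM per kb. The levels from CITED2 (31.8 CPM per kb) down to ERO1A (26.05 CPM per kb) formed a run of genes in which each overlapped the next. At the low end were RORA (0.24 CPM per kb), ANKRD37 (0.28 CPM per kb) and CA9 (0.066 CPM per kb). Of the 31 neighbouring pairs in this order, 16 overlapped over the 3 control libraries. In the oeTNFRSF12A libraries DDIT4 went from rank 3 to rank 13 of 32, and ERO1A from rank 12 to rank 3. Ranges overlapped in that order too, as for ERO1A (19.3 to 19.9 CPM per kb) and AK4 (19.0 to 19.5 CPM per kb). Ranks of genes whose ranges overlap are therefore not distinct. DDIT4 overlapped neither neighbour in the controls (34.2 to 37.6 CPM per kb). In the oeTNFRSF12A libraries DDIT4 (13.0 to 14.3 CPM per kb) overlapped STC1 (14.0 to 14.8 CPM per kb). Across the 31 tested genes, Spearman's rho between the control level per kb and the log2 fold change was 0.05. Genes are not independent replicates, and both values share the control libraries.

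**Figure D4:**
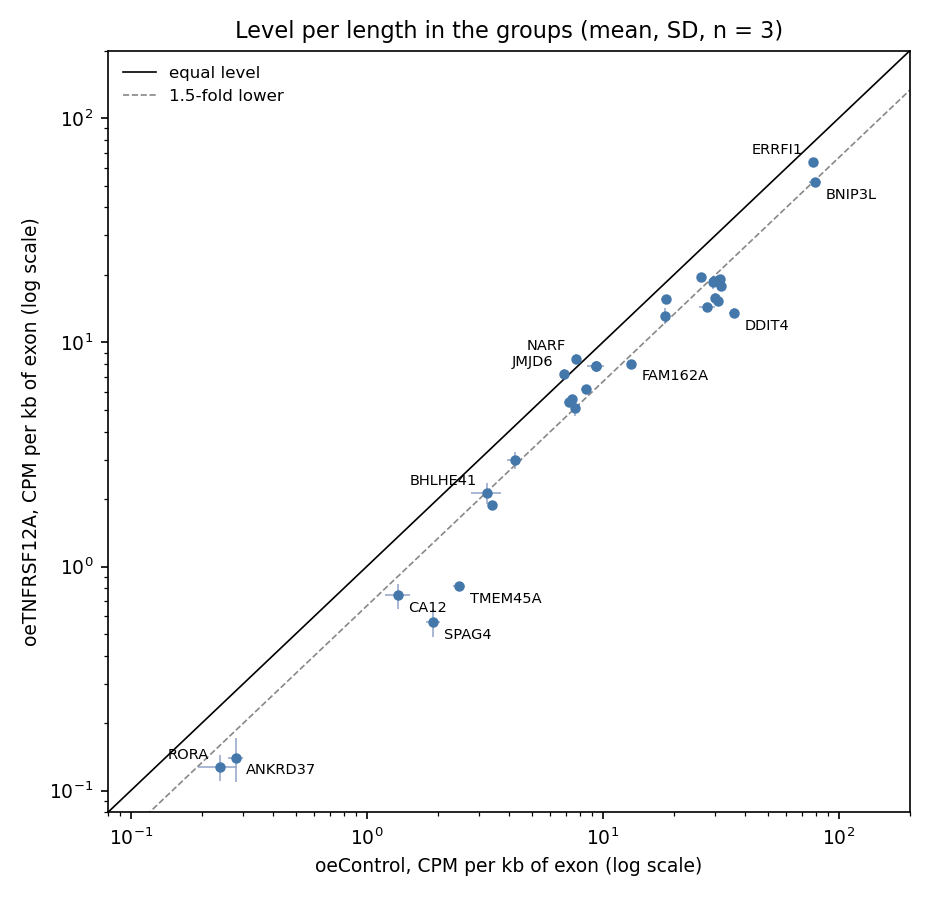
Mean CPM per kb of exon in the oeTNFRSF12A libraries against the controls, both on log scales, for the 31 tested genes, with bars for the SD (n = 3). Points fall below the line of equal level from RORA at 0.24 to BNIP3L at 79.3 CPM per kb, apart from NARF and JMJD6, and SPAG4, TMEM45A and DDIT4 lie farthest below it.

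Other listed genes of the HIF response were also mostly lower, while transcripts of the HIF machinery were mixed. These lists, like the set, were chosen with earlier results of these data known, so their falls are not independent support. Of 25 other HIF targets 22 fell and 1 rose, against 21.1% and 21.2% of all tested genes. The median log2 fold change of these targets was -0.65. The 3 with the lowest p were NDRG1 (-2.59), a stress-responsive gene, IGFBP3 (-1.86), which binds insulin-like growth factors, and VEGFA (-1.30), the angiogenic growth factor. Of 21 genes of glycolysis and glucose transport 18 fell and 1 rose, with a median of -0.41, and ENO2 (-1.07), PFKFB4 (-1.39) and PGK1 (-0.51) had the lowest p. Among 9 HIF subunits and oxygen sensors 4 fell and 2 rose. HIF1A, the oxygen-regulated subunit, went from 833 ± 10.7 to 704 ± 15.5 CPM (log2 fold change -0.24). Its alternative partner ARNT2 rose (0.45), and so did the prolyl hydroxylase EGLN3, from 3.17 ± 0.40 to 11.05 ± 0.76 CPM (1.80). EGLN3 had the largest rise of any listed gene. It was counted as an oxygen sensor only, and not also among the HIF targets. HIF is controlled mostly through protein stability, which transcript levels do not show.

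The lists next to the set held both rises and falls, where 21.2% of all tested genes rose and 21.1% fell. Of 19 ATF4 targets 7 fell and 5 rose, and the median log2 fold change was -0.10, where DDIT4 and STC2 stood at -1.41 and -1.01. The amino acid transporter subunits SLC7A5 (-0.61) and SLC3A2 (-0.45) fell and the synthetase WARS1 rose (0.27). Of 9 other carbonic anhydrases and pH transporters 3 fell and 1 rose, with CA11 at -0.67, CA5B at -0.82 and BSG at -0.13. Of 3 tested HIF coactivators and CITED relatives, CREBBP rose and CITED4 fell (-0.17). Among 18 relatives of the 32 genes 6 fell and 3 rose, with the transporter SLC6A6 at -0.62, DDIT4L at -0.92 and the lipoprotein receptor LRP8 at 0.30. Changes among the relatives ran from -1.99 to 0.30. These lists were compared by their counts only.

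**Figure D5:**
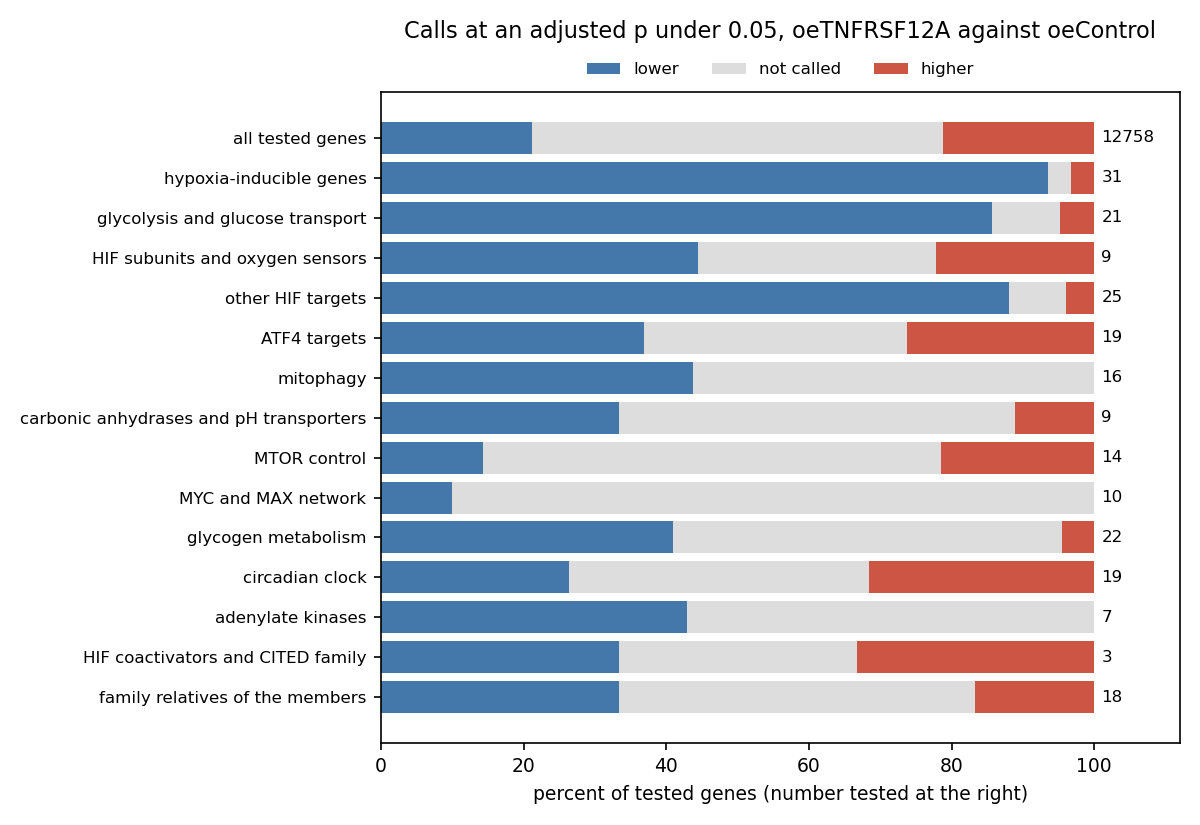
Percent of tested genes that fell (blue), rose (red) or were not called (grey) at an adjusted p under 0.05, with the number tested at the right. The hypoxia-inducible genes, the other HIF targets and the glycolysis list have 29 of 31, 22 of 25 and 18 of 21 genes lower, against 21.1% of all tested genes. The set and the lists were chosen with earlier results of these data known.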

How the data were processed

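Polyadenylated RNA of 6 libraries was sequenced, 3 per group. Per the submitters' processing notes HISAT2 2.2.1, Bowtie2 2.4.5 and RSEM 1.3.1 were used with GRCh38, without stated roles; their annotation and their handling of strand are unknown. Values were deposited by the authors per gene symbol and were read as RSEM-type expected counts, all of them whole. Of 19396 rows, 1 without a gene name held 0 counts and was left out. In R 4.3.3, edgeR 4.0.16 kept 12758 genes with filterByExpr (minimum count 10), scaled libraries by TMM factors (0.988 to 1.01) and fitted group alone by robust quasi-likelihood. The 1.5-fold test was edgeR's glmTreat on that fit. The fitting was tested on simulated counts. CPM uses TMM-scaled totals. Exon lengths and overlaps come from GENCODE release 29, which need not be the authors' annotation. Chi-square statistics per gene were 1.63 to 3.43 within groups and 18.3 to 20.6 between them, so no library was a copy. Intervals and floors cover counting error only.

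The members and gene lists were chosen with earlier results of these data known. Library values are given for the 12 genes with the largest changes, for NARF, which rose, and for CA9; from each list at most the 3 genes with the lowest p are named, and markers at 0 were named after their values were seen. Alternatives were other scalings and filters, DESeq2 1.42.0, a replicate block and leaving out each library.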

Additional observations from a re-analysis of the deposited data

How the results depend on the processing

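In the set, 28 or 29 genes fell under every scaling, filter and test tried, and 28 to 29 without each library. The stricter filter, with 28 falls, left out ANKRD37. Without a filter the 29 falls were not the same genes. CA9 was then tested as well and was called lower on 6 counts against 0, while ANKRD37 was not called. The genes past 1.5-fold numbered 10 in each of these fits and 9 to 11 without each library, fewest without oeControl replicate 2 and most without oeControl replicate 3. DESeq2 was not run for the 1.5-fold test. The rises numbered 1 in every such fit except DESeq2, where they numbered 0, and 0 to 1 without each library; at an unadjusted p under 0.05, DESeq2 and edgeR each had 1. Over all genes, edgeR called 2709 higher and 2693 lower, DESeq2 1937 and 1989, and the other alternatives 2184 to 3165 and 2322 to 2865. Of the fold changes of single genes under alternatives, 390 kept direction and call, and 12, all of NARF or ANKRD37, kept direction and lost the call. With the replicate block, 29 of the set fell and 1 rose, as without it, and 2711 and 2685 of all genes were called higher and lower. Same-numbered libraries did not deviate together (correlations of -0.019 to 0.035), and not every library correlated best with its own number. Counts limit ANKRD37, RORA and CA9, and the smallest fall called was -0.25 on the log2 scale.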
